A study of Mus musculus with 8 samples.

Results

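The metallothionein genes Mt1 and Mt2, the gene of the zinc-sensing transcription factor Mtf1 and the zinc exporter gene Slc30a1 were followed in IMCD, a mouse line from the collecting duct of the inner medulla of the kidney, exposed to medium with added NaCl. These 4 genes were chosen by symbol, are 4 of the 15288 genes in the deposited count table, and all 4 passed the filter on low counts and were among the 14024 genes tested. The control group (n = 4 libraries, replicates 1 to 4) was kept for 12 h in DMEM without serum, and the NaCl group (n = 4 libraries, replicates 5 to 8) was kept for the same time in that medium with 100 mmol NaCl added, an amount the labels give without a volume. Before this both groups were grown to confluence in high-glucose DMEM with serum, and neither carries a genetic change in the labels. No label says whether the libraries of a group came from separate cultures, so p-values measure the spread between these libraries only, which may be technical. Each library is a bulk extract, in which fewer cells of a type and less RNA per cell cannot be told apart.

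Metallothioneins are small, cysteine-rich proteins that bind zinc, copper and cadmium in the cytosol and buffer the free metal. Their genes are the best known targets of MTF-1, the product of Mtf1, a zinc-finger protein that senses free zinc and binds metal response elements in promoters. Slc30a1 encodes ZnT1, which carries zinc out of the cell across the plasma membrane and is induced through the same elements. Metallothionein genes also respond to glucocorticoids and to oxidative stress, and in the kidney the proteins are known for storing metal in tubular epithelium.

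The promoters are shown first, because the 3 target genes share the element through which MTF-1 acts. Mt2 (GRCm38 chromosome 8, 94172664 to 94173568, plus strand) and Mt1 (chromosome 8, 94179082 to 94180327, plus strand) are neighbours whose annotated starts lie 6418 bases apart, Slc30a1 lies on chromosome 1 (191906767 to 191913247, plus strand) and Mtf1 on chromosome 4 (124802104 to 124849800, plus strand). The 250 bases before the RefSeq start (GRCm38.p6, plus strand, 5′ to 3′) are printed in lower case, with capitals marking each match to the element's core, TGCACNC or TGCGCNC, on either strand.
Mt1 (chr8:94178839-94179088): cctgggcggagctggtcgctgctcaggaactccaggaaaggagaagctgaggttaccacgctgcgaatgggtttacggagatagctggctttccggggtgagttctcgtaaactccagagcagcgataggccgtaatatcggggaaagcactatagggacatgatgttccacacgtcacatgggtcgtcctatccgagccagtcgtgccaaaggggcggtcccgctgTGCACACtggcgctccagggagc
Mt2 (chr8:94172368-94172617): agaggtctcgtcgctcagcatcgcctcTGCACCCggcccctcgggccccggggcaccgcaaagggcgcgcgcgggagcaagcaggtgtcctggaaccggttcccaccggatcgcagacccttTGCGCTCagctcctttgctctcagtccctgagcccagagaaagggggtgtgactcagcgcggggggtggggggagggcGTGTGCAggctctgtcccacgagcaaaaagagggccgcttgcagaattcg
Slc30a1 (chr1:191906531-191906780): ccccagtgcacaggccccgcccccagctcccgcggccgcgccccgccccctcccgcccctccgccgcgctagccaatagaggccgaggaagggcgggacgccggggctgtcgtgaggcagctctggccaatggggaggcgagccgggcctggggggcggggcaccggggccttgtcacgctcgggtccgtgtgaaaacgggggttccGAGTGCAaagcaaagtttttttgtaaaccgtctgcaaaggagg
A match on the minus strand appears in these lines as its reverse complement, as in the GTGTGCA of Mt2 and the GAGTGCA of Slc30a1.

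Counted over the RefSeq windows of 300 bases, which add the 50 bases after the start, Mt2 held 4 core matches, Mt1 held 3, Slc30a1 held 2 and Mtf1 held 0. Of the 32841 such windows in the RefSeq table, 0.518% held at least 4 matches, 1.97% at least 3, 7.12% at least 2 and 25.7% at least 1. The principal Mtf1 transcripts of GENCODE M21 start 445 bases apart, and the Mtf1 window lies at the later start. The bases before the earlier start were not searched. The annotated starts of the metallothionein genes are not sharp either, since GENCODE M21 lists other Mt1 transcripts that begin 129 and 159 bases after the principal one. The search was therefore carried on through the 5′ leader of the principal transcript, and from the start of the window to the start codon Mt1 held 5 distinct matches in 472 bases and Mt2 held 7 in 480 bases. The leader of Slc30a1 (240 bases) held 1 match, and those of the principal Mtf1 transcripts (146 and 490 bases) held 0. Such longer stretches were not searched over all genes, so no background share stands beside these counts. The 4 matches in the Mt1 leader are printed with 8 bases on each side, capitals marking the core.
Mt1 leader, base 10: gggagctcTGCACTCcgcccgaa
Mt1 leader, base 28: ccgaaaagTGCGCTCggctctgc
Mt1 leader, base 92: cgcctgctGGGTGCAaacccttt
Mt1 leader, base 106: aaacccttTGCGCCCggactcgt
Positions count from 1 at the first base of the leader, and the match at base 92 lies on the minus strand. A match describes the letters and does not show that the factor binds there.

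The coding sequences of the 2 metallothionein genes show what their proteins share and whether their reads can be told apart. Both are 186 bases long and hold 61 codons before the stop, and 20 of these are TGC or TGT, the codons of cysteine, at the same 20 places in both genes. The lines give the coding part of the principal GENCODE transcripts, with capitals at the bases that differ.
Mt1 coding sequence: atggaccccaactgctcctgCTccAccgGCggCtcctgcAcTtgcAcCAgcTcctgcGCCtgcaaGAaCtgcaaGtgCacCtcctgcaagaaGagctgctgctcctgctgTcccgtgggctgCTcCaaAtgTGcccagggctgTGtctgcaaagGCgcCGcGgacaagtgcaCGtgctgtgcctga
Mt2 coding sequence: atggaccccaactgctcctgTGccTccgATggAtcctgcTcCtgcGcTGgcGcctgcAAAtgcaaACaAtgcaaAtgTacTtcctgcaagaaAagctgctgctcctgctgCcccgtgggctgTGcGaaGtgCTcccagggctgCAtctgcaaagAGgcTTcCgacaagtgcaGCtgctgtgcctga
The sequences differ at 38 bases in 28 codons and are 79.6% identical, and the longest identical run is 20 bases. No alignment of at least 75 bases at 98% identity joined the transcripts of Mt1 and Mt2, and none joined Mt1 to any other annotated gene. Mt2 overlaps the antisense gene Gm45774 over 432 of its 588 exonic bases, and that gene held 3 to 20 counts per library where Mt2 held 1028 to 3707. Slc30a1 overlaps the antisense gene 1700034H15Rik over 468 of 5244 exonic bases, and that gene held 11 to 40 counts. Mtf1 overlaps 1110065P20Rik on the other strand over 721 of its 8907 exonic bases, and that gene held 993 to 1357 counts. No source says that strand was used in counting, so reads from these overlaps cannot be assigned with certainty.

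Total counts were between 35.3 and 47.6 M per library, and edgeR's quasi-likelihood test called 4789 of the 14024 genes (34.1%) at a Benjamini-Hochberg adjusted p-value under 0.05. The cell identity was checked on markers. Of 14 markers of collecting duct and nephron epithelium 11 had a mean of at least 1 CPM (CPM are counts per M of the library's total, scaled by edgeR's TMM factor), among them Cdh16, Krt7, Krt8 and Pax8, but the water channel gene Aqp2 and the vasopressin receptor gene Avpr2, which define the principal cell, averaged 0.0241 and 0.108 CPM in control and 0.305 and 0.646 CPM with NaCl. The summed level of these 14 markers ranged from 1514 to 1913 CPM in control and from 2480 to 2748 CPM in NaCl libraries. Most of that difference was in Cdh16 (639 to 1380 CPM), Pax2 (78.8 to 185 CPM) and Pax8 (160 to 231 CPM), while the means of Krt7, Krt8, Krt18, Tfcp2l1 and Gata3 were lower with NaCl (338 to 325, 109 to 96.5, 217 to 205, 130 to 101 and 8.10 to 5.97 CPM). Of 5 leukocyte markers 3 were measured, with a sum of 13 to 17.9 CPM in control and 21.3 to 26.1 CPM with NaCl; Ptprc went from a mean of 4.05 to 13.5 CPM, Csf1r from 9.22 to 8.86 CPM and Cd68 from 2.41 to 1.69 CPM. The 5 fibroblast markers summed to 2747 to 3167 CPM in control and 2446 to 2816 CPM with NaCl; the mean of Col1a1 went from 2492 to 2148 CPM, that of Col3a1 from 381 to 459 CPM and that of Pdgfrb from 37.5 to 61.1 CPM. Of 5 intercalated cell markers 1 was measured (1.45 to 2.22 CPM in control, 0.194 to 0.449 CPM with NaCl). Of 5 proximal tubule markers 3 were measured (162 to 205 and 155 to 177 CPM), and nearly all of that sum was Lrp2, with means of 185 and 162 CPM. Of 4 loop and distal tubule markers 3 were measured (2.60 to 4.15 and 4.65 to 4.92 CPM), and of 4 endothelial markers 2 (0.356 to 0.870 and 0.357 to 0.804 CPM). The part of these markers in the results was not tested.

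Added NaCl went with lower transcript levels of both metallothioneins and of the zinc exporter, while the gene of their activator did not pass the test. Of the 4 genes, 3 were called lower by edgeR's quasi-likelihood test, where 17.2% of all tested genes were called lower and 16.9% higher. Mt2 fell most, to 0.502 of its control level, followed by Mt1 at 0.631 and Slc30a1 at 0.770, and Mtf1 stood at 1.04. Across all tested genes the median log2 fold change stood at 0.00287. The groups did not overlap for Mt1, Mt2 and Slc30a1, each with NaCl below, and 16.9% of all tested genes had the same separation (33.4% in either direction).

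Mt1 encodes metallothionein-1, an isoform found in most tissues. Its level was 92.4, 102, 111 and 107 CPM in the controls, in the order of replicates 1 to 4, and 46.2, 61.7, 74.2 and 78.2 CPM in the NaCl libraries, in the order of 5 to 8. Every NaCl library lay below every control library, and NaCl replicate 5 was the lowest of all. The means were 103 ± 8.24 CPM in control and 65.1 ± 14.4 CPM with NaCl (SD, n = 4 each). On the log2 scale Mt1 changed by -0.66 (SE 0.17, 95% interval -1.07 to -0.26, edgeR adjusted p = 0.0242). This call stood close to its threshold: leaving out control replicate 2, 3 or 4 or NaCl replicate 6 raised the edgeR adjusted p-value to 0.0558, 0.0596, 0.06 and 0.0651, with log2 fold changes of -0.67, -0.63, -0.65 and -0.64. Without NaCl replicate 5, which also had the lowest total counts, the log2 fold change was -0.53 (edgeR adjusted p = 0.00124).

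Mt2 encodes metallothionein-2, which is usually expressed together with Mt1. It had 74.0, 85.3, 82.5 and 87.7 CPM in the controls and 28.7, 35.6, 51.2 and 49.4 CPM in the NaCl libraries. The highest NaCl library lay well below the lowest control, and NaCl replicates 5 and 6 were lower than 7 and 8. The means were 82.3 ± 5.96 and 41.2 ± 10.9 CPM (SD, n = 4 each). On the log2 scale Mt2 changed by -0.995 (SE 0.19, 95% interval -1.46 to -0.53, edgeR adjusted p = 0.00813). The fall passed the threshold in all 18 refits of this gene, with log2 fold changes between -1.68 and -0.86. The lower end came from a fit with a linear drift over library numbers 1 to 8, in which Mt1 stood at -1.32 (edgeR adjusted p = 0.0066). All controls have lower numbers than all NaCl libraries, so this fit parts drift from group only by the trend within each group. No label gives the numbers as an order of processing. The values of this fit, here and for other genes below, are therefore not a better estimate of the change with NaCl.

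**Figure D1:**
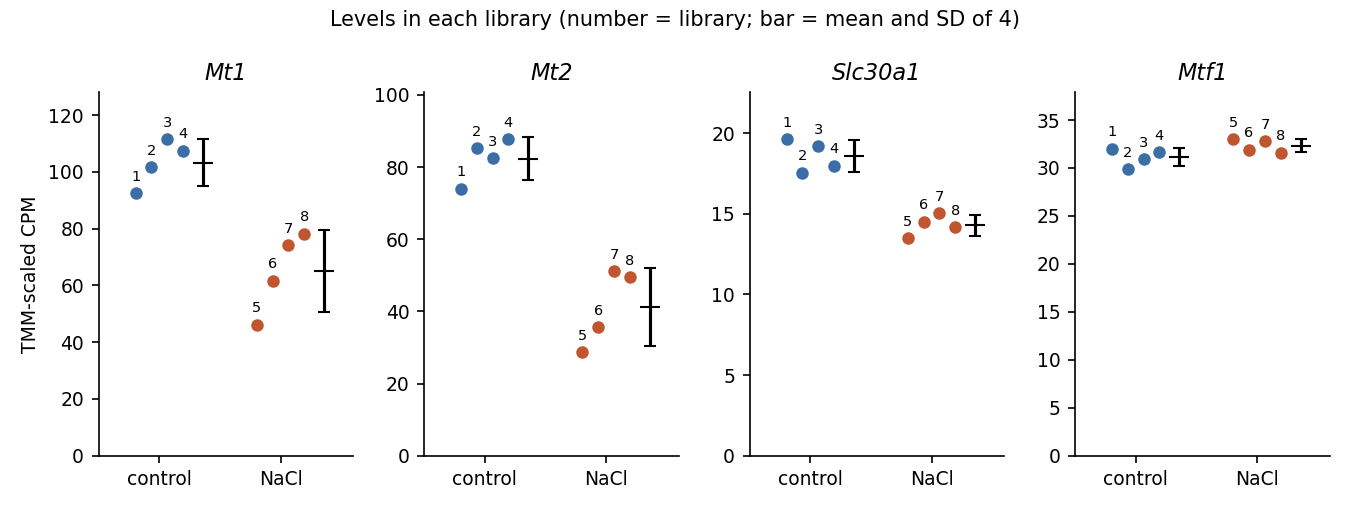
TMM-scaled CPM of Mt1, Mt2, Slc30a1 and Mtf1 (vertical axes, each from 0) in the control and NaCl groups; each point is a library with its number, and the bar gives the mean and SD of 4. NaCl libraries lie below all control libraries for Mt1, Mt2 and Slc30a1, while for Mtf1 the groups overlap at about the same level.

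Mt1 and Mt2 did not fall in proportion. Mt2 made up 44.5, 45.6, 42.5 and 44.9% of the summed Mt1 and Mt2 counts in the controls and 38.3, 36.6, 40.8 and 38.7% in the NaCl libraries. All NaCl shares were below all control shares. The exact 95% binomial interval of NaCl replicate 7, the highest NaCl library, was 39.5 to 42.2% and overlapped that of control replicate 3, which was 41.4 to 43.6%. These intervals cover counting error only, since reads without molecular identifiers are not independent molecules. The mean share was 44.4 ± 1.32% in control and 38.6 ± 1.74% with NaCl (SD, n = 4 each). A two-sided exact permutation test gave p = 0.0286, the smallest possible with 4 against 4 libraries. The difference was -5.78 percentage points, and between -6.52 and -5.10 points when each library was left out in turn. Together both transcripts took 186 ± 13.3 CPM in control and 106 ± 25.1 CPM with NaCl (SD, n = 4 each; exact permutation p = 0.0286).

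**Figure D2:**
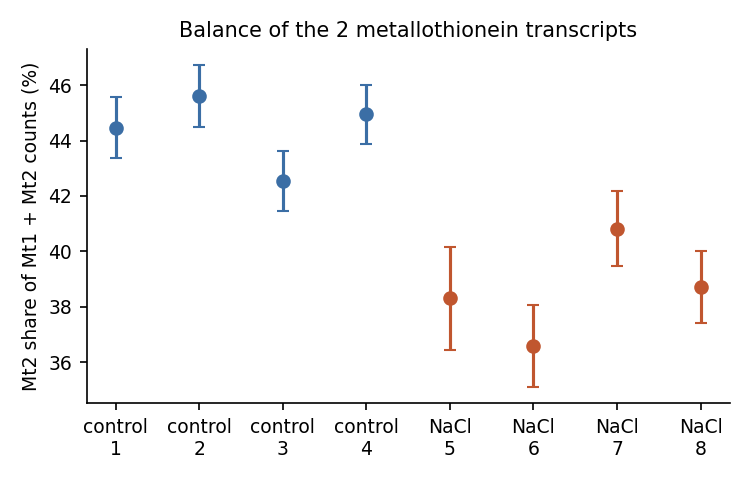
Share of Mt2 in the summed Mt1 and Mt2 counts (percent, vertical axis, not from 0) in each of the 8 libraries, with exact 95% binomial intervals that cover counting error. The 4 NaCl libraries, between 36.6 and 40.8%, lie below the 4 controls, between 42.5 and 45.6%.

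Slc30a1, the ZnT1 exporter gene, had 19.6, 17.5, 19.2 and 18.0 CPM in the controls and 13.5, 14.5, 15.1 and 14.2 CPM in the NaCl libraries. The groups were apart and each was narrow. The means were 18.6 ± 0.976 and 14.3 ± 0.658 CPM (SD, n = 4 each). On the log2 scale Slc30a1 changed by -0.38 (SE 0.070, 95% interval -0.53 to -0.23, edgeR adjusted p = 4.92e-04). With a linear drift over library numbers 1 to 8 in the fit the change was about the same, -0.37, but its SE rose to 0.15 and the edgeR adjusted p-value was 0.0602.

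Mtf1, the gene of the metal sensor itself, had 32.0, 29.9, 30.9 and 31.6 CPM in the controls and 33.0, 31.9, 32.8 and 31.6 CPM in the NaCl libraries. The groups overlapped. The means were 31.1 ± 0.934 and 32.3 ± 0.670 CPM (SD, n = 4 each), which on the log2 scale is 0.05 (SE 0.050, edgeR adjusted p = 0.439). The 95% interval of the log2 fold change ran from -0.05 to 0.16, that is from 0.965 to 1.12 of the control level.

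The sizes of the changes were then compared between the genes. For each library the difference of log2 CPM between 2 of the genes was taken, and the groups were compared by exact two-sided permutation tests adjusted over the 6 pairs. Mt2 fell by more than Mt1 (difference 0.34 on the log2 scale; adjusted exact permutation p = 0.0343), and Mt2 also fell by more than Slc30a1 (difference -0.66; adjusted exact permutation p = 0.0343). The change of Mt1 was larger than that of Slc30a1 by 0.31 on the log2 scale (difference -0.31), but the test did not pass (exact permutation p = 0.0857, adjusted 0.0857), and without NaCl replicate 5 the difference was -0.19. Each of the 3 target genes differed from Mtf1, with differences of -0.75 for Mt1, -1.09 for Mt2 and 0.43 for Mtf1 less Slc30a1 (each adjusted exact permutation p = 0.0343). The 5 pairs that passed are at the smallest p such a design allows, and with control replicate 2, 3 or 4 left out none of them passed (adjusted exact permutation p of 0.0571 to 0.103). Without NaCl replicate 5 the difference between Mt2 and Slc30a1 was -0.53 and did not pass either (0.0686).

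Levels of different genes were compared per kilobase of the principal transcript. Mt1 was at 188 ± 15 CPM per kb in control and 119 ± 26.3 CPM per kb with NaCl, and Mt2 at 161 ± 11.7 and 80.6 ± 21.3 CPM per kb (SD, n = 4 each). Even with NaCl these levels exceeded those of 96.2% and 93.9% of the tested genes. Mtf1 was at 4.08 ± 0.122 and 4.23 ± 0.0878 CPM per kb and Slc30a1 at 3.54 ± 0.186 and 2.73 ± 0.125 CPM per kb, in control above 32.9% and 30.9% of the genes. The metallothioneins were far above the sensor and the exporter in every library. Within the metallothionein pair no order can be given, because with all annotated exons as the length Mt1 stood at 82.9 and Mt2 at 140 CPM per kb in control.

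The metallothioneins spread more between the NaCl libraries than most genes did. The coefficient of variation of CPM over the NaCl libraries was 22.2% for Mt1 and 26.4% for Mt2, against 7.98% and 7.24% in control, where counting error alone gives 1.5 to 2.52%. Among the 10111 tested genes whose mean log2 CPM reached 3 the median over the NaCl libraries was 4.59%, and 99.4% of them spread less than Mt1. Over the control libraries the median was 4.92%, and 79.1% of the genes spread less than Mt1 and 73.9% less than Mt2. Slc30a1 had 5.25% in control and 4.60% with NaCl, and Mtf1 had 3.0% and 2.07%. Both metallothioneins deviated in the same direction from their group mean in 7 of the 8 libraries, the exception being control replicate 2, where the deviations were -0.02 for Mt1 and 0.05 for Mt2 on the log2 scale. In NaCl replicate 5 they were -0.46 and -0.48, and in NaCl replicate 8 they were 0.29 and 0.30.

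**Figure D3:**
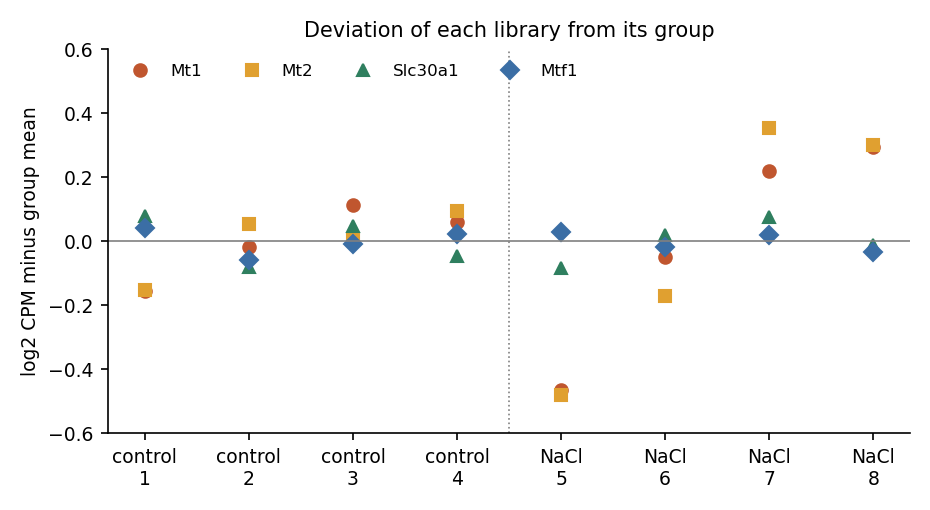
Deviation of log2 CPM from the mean of the own group (vertical axis, log2 units) for Mt1, Mt2, Slc30a1 and Mtf1 in each library. Mt1 and Mt2 lie together and range from about -0.48 to 0.35 in the NaCl libraries, while Slc30a1 and Mtf1 range from -0.08 to 0.08.

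The genes most like each of the 4 were ranked by Pearson's r of these deviations over the 8 libraries, among 10110 other genes. Every gene is read from the same 8 libraries, with their depths and order, so r is a description and carries no test. Mt1 ran with Higd1a (r = 0.995), a nuclear gene of a mitochondrial protein known to be induced by low oxygen, the glucose transporter gene Slc2a1 (0.993) and Gdi2 (0.992). Of these, Gdi2 was called lower (log2 fold change -0.09, edgeR adjusted p = 0.0341), a call lost without control replicate 2, 3 or 4 or NaCl replicate 5 or 6 (0.0530 to 0.111), and the log2 fold changes of Higd1a and Slc2a1 were -0.23 and 0.09 (edgeR adjusted p = 0.434 and 0.821). With a linear drift over library numbers in the fit Higd1a was called lower at -1.03 (edgeR adjusted p = 0.0156). Mt2 ran with Atg4c (0.977), Atf7 (0.976) and Plekha2 (0.973), with Mt1 at place 22 (0.951), and Mt2 held place 110 in the order of Mt1. Slc30a1 ran with Cdh2 (0.955), Tmem11 (0.953) and Col1a1 (0.946), and Mtf1 with Ppp3cb (0.958), Mmgt2 (0.946) and Atpaf1 (0.932). Slc30a1 was not close to the metallothioneins within groups, with r of 0.392 to Mt1 and 0.317 to Mt2.

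The other zinc transporters showed no shared direction. This list holds 23 genes of the ZnT family (Slc30), which moves zinc out of the cytosol, and of the ZIP family (Slc39), which brings it in. Of these 16 were tested, and 3 rose, 2 fell and 11 did not pass edgeR's test, near the 16.9% and 17.2% called higher and lower over all genes. The median log2 fold change was -0.004, with values from -0.52 to 0.27. Slc30a4 (ZnT4) rose from 114 ± 7.10 to 138 ± 9.96 CPM (SD, n = 4 each; log2 fold change 0.27, edgeR adjusted p = 0.00153), with overlapping groups because NaCl replicate 8 had 123 CPM and control replicate 1 had 124 CPM. Slc39a6 (ZIP6) rose by 0.17 on the log2 scale (edgeR adjusted p = 0.00324) and Slc39a10 (ZIP10) by 0.16 (0.0153). Slc30a5 (ZnT5), which loads zinc into the secretory pathway, fell by 0.18 (edgeR adjusted p = 0.00440), and Slc39a3 (ZIP3) fell by 0.22 (0.0291). The call of Slc39a3 was lost without control replicate 1 or 4 or NaCl replicate 5, 6 or 7 (edgeR adjusted p = 0.0507 to 0.0896). Slc39a7 (ZIP7), which releases zinc from the endoplasmic reticulum and was the most abundant of the list per kilobase, had 243 ± 2.12 and 234 ± 9.23 CPM (SD, n = 4 each; edgeR adjusted p = 0.273). The fall of Slc30a1 (-0.38) was larger on the log2 scale than any called change in this list, a difference that was not tested.

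Other genes described as MTF-1 targets were mixed in direction, in a list that includes Slc39a10, which MTF-1 is known to repress. Of 9 listed genes 7 were tested, and the other metallothioneins Mt3 and Mt4 were not analysed here. In edgeR's test 3 fell and 2 rose, where 17.2% of all tested genes were called lower and 16.9% higher, and the median log2 fold change of the 7 was -0.34. Gclc, the catalytic subunit of the enzyme that starts glutathione synthesis, had 73.4, 76.5, 76.2 and 74.1 CPM in control and 53.6, 49.6, 48.5 and 52.8 CPM in NaCl libraries, with no overlap (log2 fold change -0.55, edgeR adjusted p = 4.84e-08). Slc40a1, the iron exporter ferroportin, fell from 33.9 ± 2.69 to 24.7 ± 1.68 CPM (SD, n = 4 each; log2 fold change -0.45, edgeR adjusted p = 5.75e-05). Selenow, a small selenoprotein, fell from 61.1 ± 0.666 to 48.1 ± 1.5 CPM (log2 fold change -0.34, edgeR adjusted p = 7.10e-06). Csrp1, a LIM-domain protein of the actin cytoskeleton and the most abundant of the list per kilobase, rose from 379 ± 12.0 to 485 ± 10.5 CPM (log2 fold change 0.35, edgeR adjusted p = 4.23e-07).

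Slc39a10, which stands in both lists, is known to be repressed by MTF-1 when zinc is high. It had 54.3, 49.4, 50.1 and 50.4 CPM in control and 57.2, 60.5, 53.8 and 57.0 CPM with NaCl. NaCl replicate 7 lay below control replicate 1, so the groups overlapped, and the adjusted p-value of edgeR's test was 0.0559 without control replicate 2 and 0.0638 without NaCl replicate 6. Its RefSeq promoter windows held no core match, and that of Selenow held a pair that overlap on opposite strands. The remaining 2 genes did not pass and are named because so few were left: Ndrg1 had 421 ± 90.7 and 322 ± 114 CPM (log2 fold change -0.39, edgeR adjusted p = 0.399), and Pgf had 2.11 ± 0.256 and 2.42 ± 0.742 CPM (0.504). With a linear drift over library numbers in the fit Ndrg1 was called lower (log2 fold change -1.73, edgeR adjusted p = 0.0121), and without NaCl replicate 5 it stood at -0.19.

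**Figure D4:**
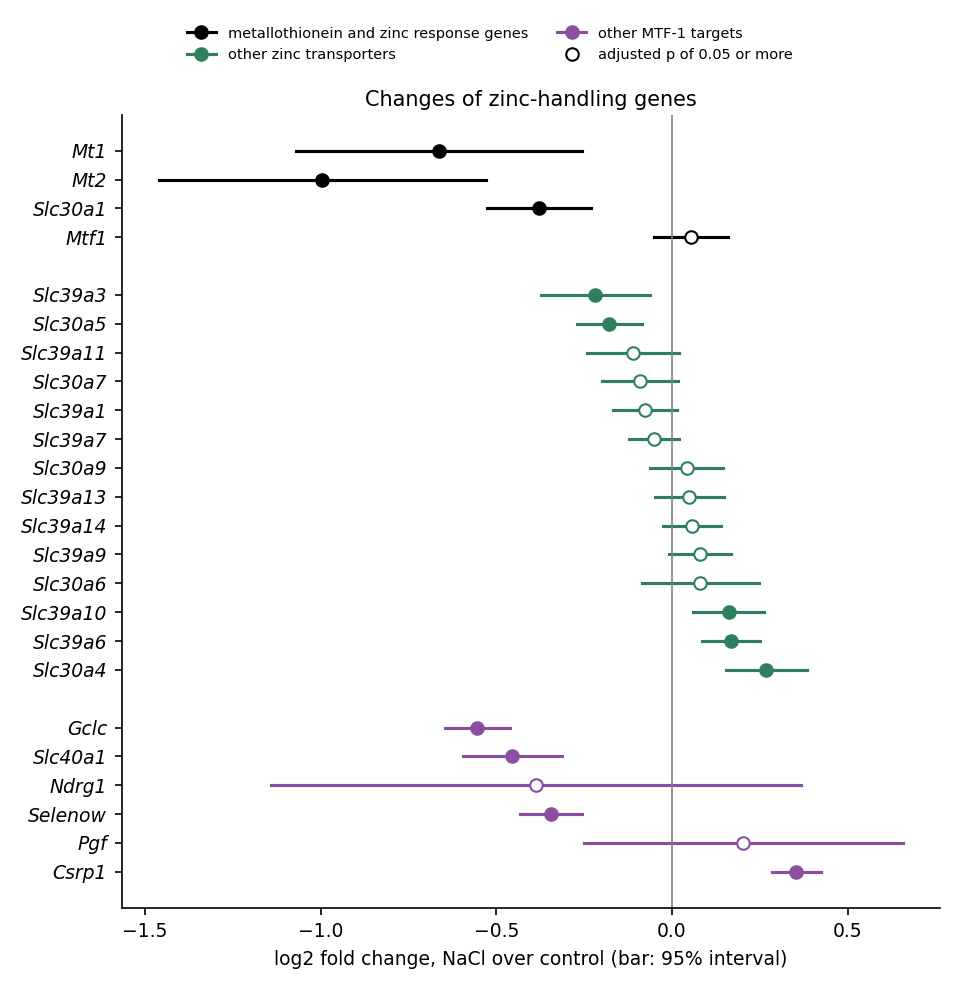
Log2 fold changes of NaCl over control (horizontal axis) with 95% intervals from edgeR's fit for the 4 genes, for other zinc transporters and for other MTF-1 targets with a group mean of at least 1 CPM; Slc39a10 is drawn once, and open points did not pass the test. Mt2, Mt1 and Slc30a1 lie left of 0 and apart from most zinc transporters, which lie between -0.22 and 0.27.

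The genes around the metallothionein pair on chromosome 8 were examined in a window of 250 kb on each side of the Mt1 start. Besides Mt1 and Mt2, 9 genes there were examined. None of the 9 passed edgeR's test in either direction, where 34.1% of all tested genes did, with a median log2 fold change of 0.12, while 3 had an unadjusted p-value under 0.05, and DESeq2 and limma called 0 of them too. At 35.5 kb, Nup93, a nuclear pore protein gene, had 105 ± 8.11 and 116 ± 7.11 CPM (SD, n = 4 each; log2 fold change 0.15, edgeR adjusted p = 0.0522). Bbs2, a cilium gene at 80.2 kb on the other side, had 21.4 ± 2.06 and 24.2 ± 0.685 CPM (0.18, edgeR adjusted p = 0.0602). Both stood near the threshold: Nup93 was called higher without control replicate 1 or NaCl replicate 8 (edgeR adjusted p = 0.00263 and 0.0471) and Bbs2 without control replicate 1 or 4 (0.0345 and 0.0387). With a linear drift over library numbers in the fit Nup93 was called higher at 0.42 (edgeR adjusted p = 1.05e-05), and with the number centred within groups at 0.15 (4.66e-04). Nudt21, Ogfod1 and Herpud1 had log2 fold changes between -0.06 and 0.02. Slc12a3 (0.59, edgeR adjusted p = 0.0844), C78859 (0.36), Gm15889 (-0.14) and Gm45774 (0.12) had group means under 2 CPM, and Slc12a3 was called higher without control replicate 3 or NaCl replicate 5 (0.0384 and 0.0414). The sign turned for C78859 without NaCl replicate 8, for Gm15889 without control replicate 4 and for Gm45774 without control replicate 1 or NaCl replicate 6.

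**Figure D5:**
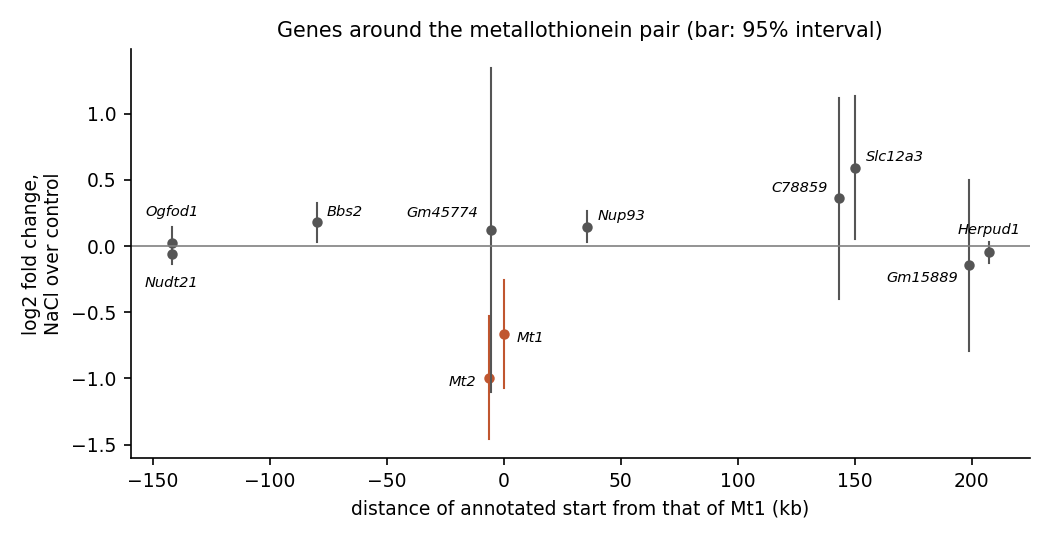
Log2 fold change of NaCl over control with 95% intervals from edgeR's fit (vertical axis) against the distance of each gene's annotated start from that of Mt1 (kb, horizontal axis). Mt2 and Mt1, in colour, lie below 0, and the 9 neighbours shown, in grey, scatter around or above 0 with none past the test.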

How the data were processed

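RNA of 8 bulk libraries was measured. The submitters' processing notes name Trim Galore 0.6.7, STAR, DESeq2 1.34.0 and the build mm10, with no role or order; the counting program and its use of strand are not given in the sources used here. The authors deposited raw counts per Ensembl gene, and a table of signal values, each the raw count over a library-wide factor (0.864 to 1.15), used only as an alternative. Genes passing filterByExpr at a minimum count of 10 (14024 of 15288; those removed held 0.0191% of counts) were tested in R 4.3.3 with edgeR 4.0.16 (TMM, robust quasi-likelihood F test, group as the single term, Benjamini-Hochberg adjustment over all tested genes, threshold 0.05). The SE is the absolute log2 fold change over the square root of F. Log2 CPM used a prior count of 2. Totals of 35.3 to 47.6 M counts give the 4 genes 483 to 4613 counts per library. Alternatives were other scalings, no filter or at least 10 counts in every library, DESeq2 1.42.0, limma-voom and limma (3.58.1) on the deposited normalized values, a threshold of 0.01, the library number as a covariate, and leaving out each library. In simulated counts for the real genes 79.4% of log2 changes of 0.5 and 97.0% of changes of 1 were recovered (13907 genes tested), with 7.94% of the 189 calls false. The simulation gave every gene the same spread and changed only a small part of the genes. Its shares therefore do not apply to genes that spread as Mt1 and Mt2 did with NaCl. The text names the 4 genes, from each list up to 3 called genes in each direction with the highest absolute change and the most abundant tested gene per kilobase, tested neighbours within 250 kb (1 further gene there was left out and is not reported here), and the 3 genes most alike to each of the 4; others are named where said. Genes and lists were chosen with earlier results of these data known. Positions and lengths are from GENCODE M21 (GRCm38, the same assembly as mm10; 15274 of the 15288 identifiers matched), promoters from RefSeq (GRCm38.p6; all 4 genes matched), and shared sequence from blastn 2.17.0.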

Additional observations from a re-analysis of the deposited data

Results flagged for a closer look

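In 112 sets of 4 values from a group, 3 had a highest or lowest library far from the other 3; chance gives about 1 in 20 (5.6). Total counts were 47565623 in control replicate 1, where the other controls had 41768063 to 42731803, and 35286796 in NaCl replicate 5, where the others had 41366039 to 42394487. The log2 CPM of Mt1 less that of Slc30a1 was 2.23 in control replicate 1 against 2.53 to 2.57 in the other controls.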

How the results depend on the processing

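No paired analysis was possible because the groups share no replicate numbers in the labels. Of 18 refits each, Mt2 kept its direction and its call in 18, Slc30a1 in 17 and Mt1 in 14, and Mtf1 stayed uncalled in 18 (log2 fold changes from 0.03 to 0.08). Leaving out each library gave log2 fold changes of -0.77 to -0.53 for Mt1. It gave differences between genes of 0.30 to 0.39 (Mt1 and Mt2), -0.85 to -0.58 (Mt1 and Mtf1), -1.20 to -0.92 (Mt2 and Mtf1), -0.76 to -0.53 (Mt2 and Slc30a1), 0.39 to 0.45 (Mtf1 and Slc30a1) and -0.42 to -0.19 (Mt1 and Slc30a1). The numbers called were then 1 to 2 zinc transporters lower, 1 to 2 other MTF-1 targets higher, 1 to 2 copper genes higher and 1 to 3 lower, 1 to 2 iron genes higher, and 0 to 2 neighbours higher. With a linear drift over library numbers 1 to 8, Slc30a1 stood at -0.37 and was no longer called, 4 zinc transporters, 4 other MTF-1 targets, 1 copper gene and 9 iron genes were lower, 1 iron gene and 1 neighbour were higher, and Ncoa4 reversed to -0.048. With the number centred within groups 8 iron genes were lower and 2 neighbours higher; library totals alone and at least 10 counts in every library each gave 1 neighbour higher. The linear drift can be parted from the group only by the trend within each group. The cause of these shifts was not tested. A threshold of 0.01 left 3145 called genes against 4789. At that threshold Mt2 and Slc30a1 stayed called (edgeR adjusted p = 0.00813 and 4.92e-04) and Mt1 did not (0.0242).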

Other observations

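Genes that store, carry or sense iron did not share a direction. Of 19 listed genes all 19 were tested, and 5 fell, 2 rose and 12 did not pass edgeR's test, with a median log2 fold change of -0.10, where 34.1% of all tested genes were called (17.2% lower, 16.9% higher), a share near that of the list. Cp, the ferroxidase ceruloplasmin, which carries copper, fell from 555 ± 47.0 to 319 ± 27.1 CPM (SD, n = 4 each; log2 fold change -0.80, edgeR adjusted p = 1.31e-05). Ftl1, the ferritin light chain and the most abundant of the list per kilobase, fell from 1379 ± 15.3 to 1054 ± 14.6 CPM (-0.39, edgeR adjusted p = 3.35e-08), and the iron exporter gene Slc40a1 stood between them at -0.45. The other two are named outside the rule, after their values were seen: the ferritin heavy chain gene Fth1 fell by 0.25 on the log2 scale and the iron sensor gene Aco1 by 0.10 (edgeR adjusted p = 1.03e-05 and 0.0396). Pcbp1, an iron chaperone, rose by 0.17 and Ncoa4, the ferritin autophagy receptor, by 0.13 (edgeR adjusted p = 0.00156 and 0.0195). The call of Ncoa4 was lost without control replicate 1 or NaCl replicate 7 or 8, and that of Aco1 without control replicate 1 or 4 or any NaCl library. Aco1 was also not called with library totals alone (log2 fold change -0.09, edgeR adjusted p = 0.0784) or with a linear drift in the fit (-0.05, 0.662). Hmox1, the heme-degrading enzyme, was also named after its values were seen: it had 55.1, 56.3, 69.7 and 64.1 CPM in control and 29.7, 36.7, 49.1 and 49.3 CPM with NaCl, groups that did not overlap, but its edgeR adjusted p-value was 0.0516 (log2 fold change -0.57; 0.00944 in DESeq2, and 0.0282 in edgeR without NaCl replicate 5, 0.0375 without 7 and 0.0421 without 8). With a linear drift over library numbers in the fit it was called lower at -1.28 (edgeR adjusted p = 0.00622), and limma-voom also called it (0.00293).

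Copper genes had no shared direction. Of 14 listed genes 13 were tested, and 3 fell, 1 rose and 9 did not pass, near the 34.1% called in either direction over all genes, with a median log2 fold change of -0.05. Slc31a2, a copper transporter of endosomes, rose from 19.4 ± 1.78 to 28.0 ± 0.959 CPM (SD, n = 4 each; log2 fold change 0.53, edgeR adjusted p = 1.71e-05). Steap3, a metalloreductase, fell by 0.51 on the log2 scale (edgeR adjusted p = 0.00187), and Sco1, which delivers copper to cytochrome oxidase, by 0.22 (0.0356). The copper chaperone gene Atox1, the most abundant of the list per kilobase, fell by 0.17 (0.0181). The call of Sco1 was lost without control replicate 3 or 4 or NaCl replicate 5, 7 or 8, and that of Atox1 without control replicate 2 or NaCl replicate 5 (edgeR adjusted p = 0.0671 and 0.0560).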
